A study of Mus musculus with 12 samples.

Results

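Pdk4, Acot1, Acot2, Angptl4, Ucp3, Cpt1a, Plin2, Plin5 and Fkbp5 are 9 of the 17471 genes listed for mouse left ventricle. They were picked by name because 1 library, Cre-positive sham replicate 2, differed in them from the other sham libraries, so the sham values chose them and are given as a description with no test. All 9 passed the filter on low counts in every comparison. Relative to the library total, the picking holds for 7 of the 9. Ucp3 and Plin2 in that library lay inside the range of the other 5 sham libraries. Plin2 did so narrowly, and lay above that range once the totals were rescaled, as given at the end.

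The hearts came from sibling mice aged 6 to 10 weeks, all with floxed alleles of Yap, and were taken 4 days after surgery. Cre-positive MI hearts carried 1 copy of the tamoxifen-inducible recombinase MerCreMer at the endogenous periostin locus and had the left anterior descending coronary artery tied off for good, a model of myocardial infarction (MI). Cre-negative MI hearts had the same ligation and wildtype periostin. Cre-positive sham and Cre-negative sham hearts had these same 2 genotypes and a sham operation. All mice, controls included, ate a tamoxifen citrate diet from the operation on, and each group has n = 3 libraries. The periostin promoter drives Cre in activated fibroblasts, so cells that never switch it on keep Yap, and whole ventricle was sequenced. The labels give only a number per replicate, so p-values measure the spread between these samples, which may be technical.

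PPARs (peroxisome proliferator-activated receptors) are nuclear receptors that bind fatty acids. They pair with RXR at DNA sites made of a direct repeat and switch on genes for fat uptake, storage and burning. In heart muscle this programme is active in fasting, when fatty acids replace glucose as fuel. Glucocorticoids and FOXO factors act on some of the same genes, and Fkbp5 is known first as a glucocorticoid target.

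Libraries held 10257675 to 15176286 expected counts. The targeted gene Yap1 stood at 96.6 to 101 CPM (expected counts relative to the library total) in Cre-positive MI and 96.1 to 107 CPM in Cre-negative MI libraries (log2 fold change 0.02 ± 0.07 SE, edgeR adjusted p = 0.912). Postn, the locus that carries Cre, stood at 649 to 719 CPM in Cre-positive MI and 1699.5 to 1876 CPM in Cre-negative MI libraries (-1.34 ± 0.09, adjusted p = 0.00261). Cre-positive sham replicate 2 stood apart: the slow myosin gene Myh7 was at 30419.7 CPM there, where the remaining sham hearts had 368 to 2727 CPM. Myh6, the fast myosin gene, was at 12802 CPM, where the remaining sham hearts had 38896 to 48242 CPM. Reads of Y-linked genes were present in 1 of 3 Cre-positive MI, 3 of 3 Cre-negative MI, 0 of 3 Cre-positive sham and 2 of 3 Cre-negative sham libraries. Sex and genotype were therefore unevenly matched.

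Sequence upstream of the transcription start was read from RefSeq promoters on GRCm38.p6, the assembly of mm10, for the 8 members with an entry, which leaves out Angptl4. The 250 bases before each start were searched on both strands for the 6-letter motif AGGTCA and for the direct repeat with 1 base between, AGGTCANAGGTCA, the form that PPAR and RXR pairs bind. The exact repeat stood in 0.037% of 27025 promoter entries and in 0 of the 8 members. With up to 2 mismatches it stood in 3.18% of entries and in 2 members, Ucp3 and Plin2. The 6-letter motif, which is a part of such a repeat, stood in 13.8% of entries and in 4 members, Ucp3, Cpt1a, Plin2 and Plin5. The windows of Pdk4, Acot1, Acot2 and Fkbp5 held none of these letters. Those of Ucp3 and Plin2 are printed as the ones with a near repeat, in capitals, and those of Pdk4 and Acot1 as members with no match whose ratio in the library that stood apart was among the 3 largest. The window of Ucp3 lies at chr7:100472741-100472990 on the plus strand, that of Plin2 at chr4:86670218-86670309 on the minus strand (the 92 bases outside the annotated gene), that of Pdk4 at chr6:5496279-5496528 on the minus strand and that of Acot1 at chr12:84009252-84009501 on the plus strand.
Ucp3: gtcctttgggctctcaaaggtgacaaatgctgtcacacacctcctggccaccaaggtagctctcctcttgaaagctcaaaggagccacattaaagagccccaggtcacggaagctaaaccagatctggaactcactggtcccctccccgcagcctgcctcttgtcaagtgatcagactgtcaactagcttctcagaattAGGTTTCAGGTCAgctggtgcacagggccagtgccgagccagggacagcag
Plin2: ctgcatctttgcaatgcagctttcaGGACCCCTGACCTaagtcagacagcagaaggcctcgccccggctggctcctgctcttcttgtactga
Pdk4: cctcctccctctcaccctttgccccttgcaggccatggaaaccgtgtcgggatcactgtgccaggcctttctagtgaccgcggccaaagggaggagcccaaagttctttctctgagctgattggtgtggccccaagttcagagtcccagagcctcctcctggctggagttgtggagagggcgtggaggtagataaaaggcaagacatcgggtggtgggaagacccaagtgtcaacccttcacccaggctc
Acot1: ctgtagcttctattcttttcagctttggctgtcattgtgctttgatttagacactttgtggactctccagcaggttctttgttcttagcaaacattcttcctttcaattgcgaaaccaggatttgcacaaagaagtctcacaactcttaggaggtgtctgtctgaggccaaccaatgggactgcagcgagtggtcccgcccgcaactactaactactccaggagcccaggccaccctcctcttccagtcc
In Ucp3 the near repeat spans bases -51 to -39 from the start. In Plin2 it spans bases -225 to -213 and reads on the opposite strand. A match describes the letters only, and nothing is drawn from it. By CPM the 2 members with a near repeat lay inside the range of the other sham libraries in Cre-positive sham replicate 2. Those values picked the members, and Plin2 lay above that range once library totals were rescaled, so this is no test.

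**Figure D1:**
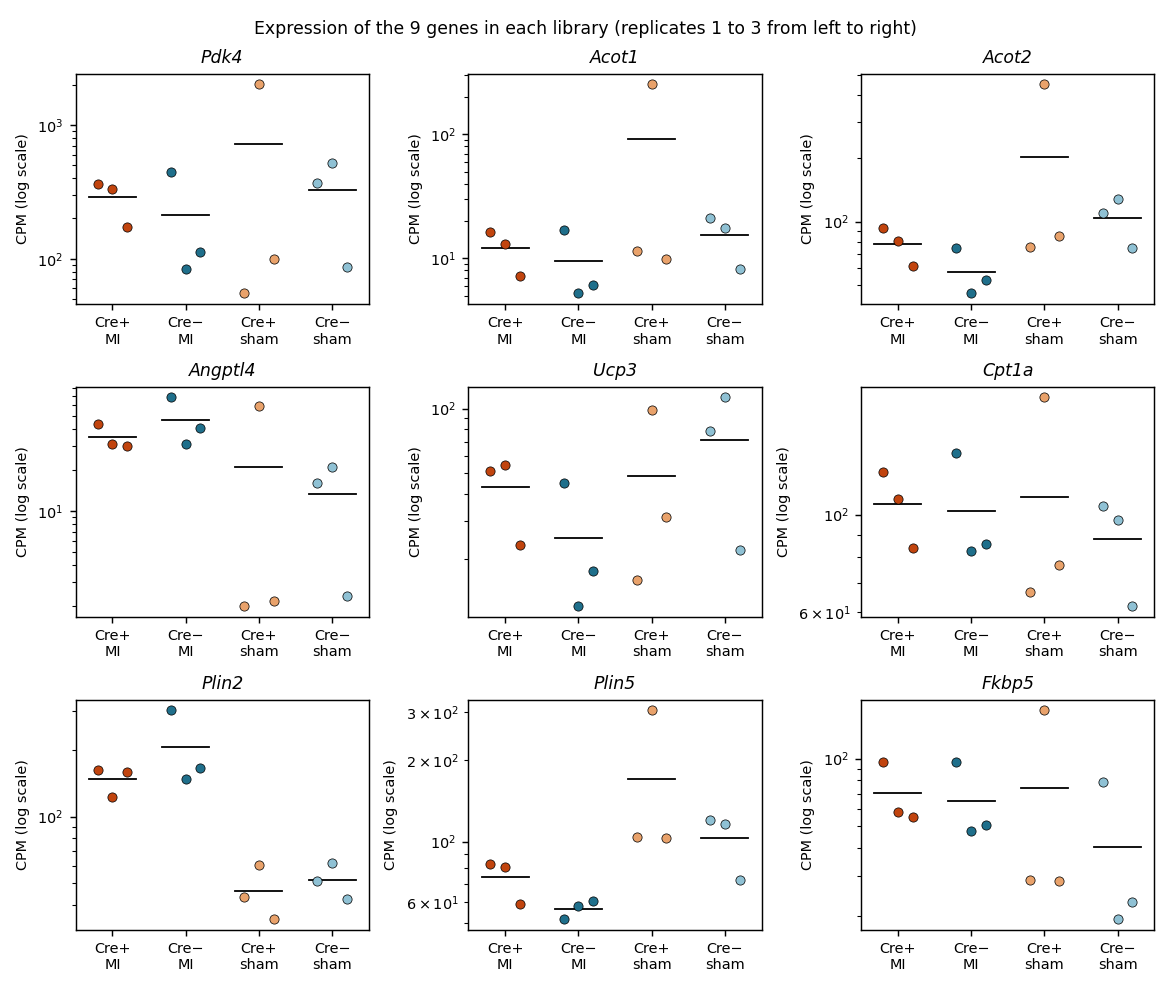
Expression of the 9 genes in CPM (vertical axis, log scale) in each library, with groups along the horizontal axis, points for replicates 1 to 3 from left to right and a bar at the group mean (n = 3). Cre-positive sham replicate 2 is the highest of 6 sham libraries for 7 genes, while Ucp3 and Plin2 are highest in Cre-negative sham replicate 2.

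Pdk4 encodes the kinase that shuts off pyruvate dehydrogenase and so spares glucose. It had 2003 CPM in Cre-positive sham replicate 2, against 55.2 and 98.9 CPM in Cre-positive sham replicates 1 and 3 and 369, 521 and 86.3 CPM in Cre-negative sham replicates 1 to 3. The library thus held 20.1 times the median of the other 5, with 0.5 CPM added to both, and 3.84 times the highest of them. Cre-negative sham replicates 1 and 2 were themselves well above the remaining 3 sham libraries.

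Acot1 and Acot2 encode acyl-CoA thioesterases of the cytosol and of mitochondria, which cut fatty acyl-CoA into free fatty acid. Acot1 had 252 CPM in Cre-positive sham replicate 2, against 8.17 to 21.0 CPM in the remaining sham libraries. That was 21.1 times their median with 0.5 CPM added to both. Acot2 had 451 CPM there, against 75.1 to 129 CPM, 5.24 times the median by the same measure. For both genes the library lay far above all others, and the rest spanned less than a 3-fold range.

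The split between these neighbours, Acot2 at chr12:83987861-83993877 and Acot1 at chr12:84009502-84017670, is uncertain. Their longest protein-coding transcripts in GENCODE M21 share 94.3% of 1330 aligned bases, with an identical run of 273 bases, and their expected counts were fractional in 12 of 12 libraries. Per length, the FPKM of Acot2 was 1.25 times that of Acot1 in Cre-positive sham replicate 2, against 3.07 to 6.43 times in the other 11 libraries. Their summed level was 703 CPM there, against 83.3 to 146 CPM in the remaining sham libraries, a gap that the split between them does not touch. Pdk4 counts were also fractional in 12 of 12 libraries, and those of the other 6 members in 0.

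Angptl4 encodes a secreted inhibitor of lipoprotein lipase, made in fasting. It had 59.4 CPM in Cre-positive sham replicate 2, against 1.98 and 2.15 CPM in Cre-positive sham replicates 1 and 3 and 16.0, 21.3 and 2.38 CPM in Cre-negative sham replicates 1 to 3. With 0.5 CPM added to both, the ratio was 20.8 to the median of the other 5. Without that addition it was 2.80 to the highest of them. As for Pdk4, Cre-negative sham replicates 1 and 2 formed a middle level.

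Ucp3, an uncoupling protein of the inner mitochondrial membrane in muscle, and Cpt1a, the liver form of the enzyme that admits long-chain fatty acids to mitochondria, both act on the mitochondrial side of fat oxidation. Ucp3 had 98.9 CPM in Cre-positive sham replicate 2, against 15.9 and 31.2 CPM in its group and 78.9, 113 and 21.9 CPM in Cre-negative sham libraries. Cpt1a had 185 CPM there, against 61.8 to 104 CPM in the remaining sham libraries. Ucp3 was therefore above its own group but below Cre-negative sham replicate 2, and Cpt1a was above all 5.

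Plin2 and Plin5 encode perilipins that coat lipid droplets, and Plin5 ties the droplet to mitochondria in oxidative tissue. Plin2 had 60.6 CPM in Cre-positive sham replicate 2, against 34.6 to 62.0 CPM in the remaining sham libraries. Plin5 had 304 CPM there, against 72.4 to 119.9 CPM. Fkbp5, a co-chaperone of the glucocorticoid receptor, had 164 CPM in that library, against 28.7 and 29.0 CPM in its group and 78.7, 19.4 and 23.1 CPM in Cre-negative sham replicates 1 to 3. By CPM, Plin5 thus lay above every other sham library and Plin2 just under the highest, at 0.978 times it. Under TMM or RLE scaling of the library totals, Plin2 also lay above every other sham library.

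Of 12379 genes with a mean of at least 1 CPM over the sham libraries, 61% lay outside the range of the 5 others in Cre-positive sham replicate 2, 27.2% above and 33.8% below. Of the 9 members, 7 lay above and 0 below. A level at least 2-fold above the median of the others was held by 8 members, all but Plin2, and by 2.29% of genes, and one at least 2-fold below by 0 members and 4.96% of genes. These shares describe the picking and are no support for it. Against the 3 Cre-negative sham libraries alone the log2 ratios were smaller for 8 members, all but Fkbp5. Pdk4 stood at 2.44 in place of 4.33, Angptl4 at 1.86 in place of 4.38 and Ucp3 at 0.32 in place of 1.65.

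Other genes of the pathways were read from lists drawn up with earlier results of these data known. In Cre-positive sham replicate 2, 29 of 37 other PPAR targets lay above all 5 other sham libraries and 5 below, against 27.2% and 33.8% of all genes. Pnpla2, the lipase that opens triglyceride stores, had 1633 CPM in that library, against 515 to 896 CPM in the remaining sham libraries. Of the genes for the receptors and cofactors, 5 of 16 lay above and 3 below. The receptor gene Ppara had 141 CPM against 92.3 to 149 CPM, while the coactivator gene Ppargc1a had 512 CPM against 142 to 194 CPM.

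Among 17 glucocorticoid receptor and target genes, 13 lay above all 5 others and 2 below, against 27.2% and 33.8% of all genes. The 2 below were receptor genes and not targets. Hsd11b1, which regenerates active glucocorticoid inside cells, had 48.8 CPM in Cre-positive sham replicate 2, against 9.11 to 18.8 CPM in the remaining sham libraries. Of the FOXO and fasting genes, 9 of 18 lay above and 3 below. The cell cycle inhibitor gene Cdkn1a had 184 CPM against 15.6 to 36.7 CPM, and the insulin signalling gene Irs2 83.5 CPM against 9.74 to 17.3 CPM. Of these 18 genes, 3 were at least 2-fold above the median of the others and 1 at least 2-fold below. Close relatives of the members lay above in 9 and below in 11 of 28 cases, with the droplet gene Plin4 at 1067 CPM against 272 to 476 CPM. As many relatives were at least 2-fold below the median of the others as above it, 3 each. Of all genes, 2.29% were at least 2-fold above and 4.96% below. The median log2 ratio was 0.67 over other PPAR targets, 0.99 over the glucocorticoid list, 0.09 over the FOXO list, -0.09 over the relatives and -0.05 over all genes.

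**Figure D2:**
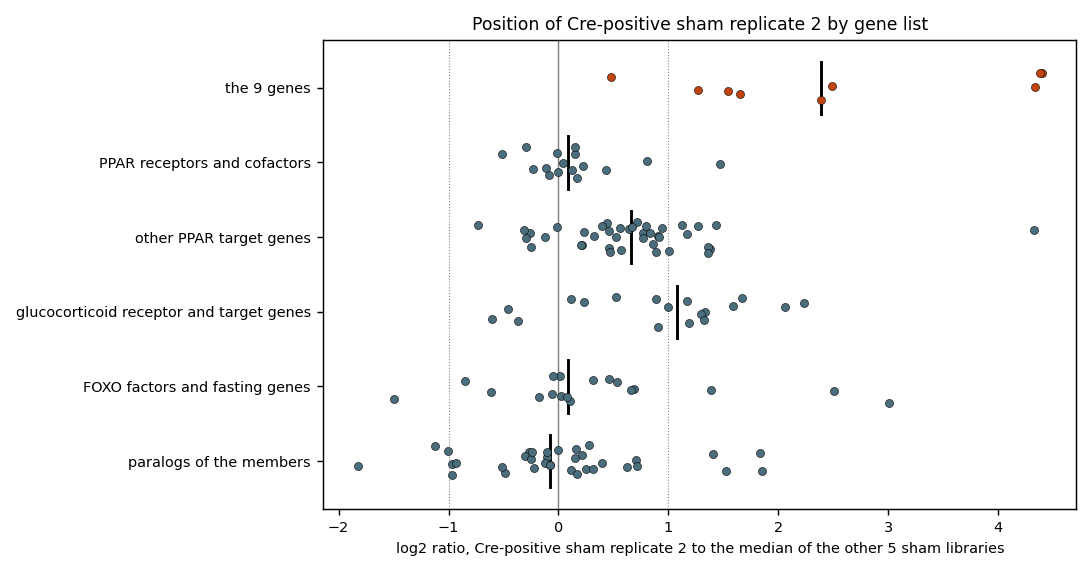
Log2 ratio of Cre-positive sham replicate 2 to the median of the other 5 sham libraries (horizontal axis, dotted lines at 2-fold) for each gene of a list (points, spread vertically for sight) with the list median as a bar, for all genes of the lists. The 9 genes, chosen on these values, have a median of 2.39, and the bars of the other lists lie to the left of it.

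Cell type markers moved with this library too. The summed level of 12 cardiomyocyte markers was 81219 CPM in Cre-positive sham replicate 2, against 133470 to 151156 CPM in the remaining sham libraries, with 9 of 12 below all others. That of 10 macrophage markers was 109 CPM against 282 to 405 CPM (9 of 10 below), of 7 atrial markers 1281 CPM against 379 to 633 CPM (6 of 7 above) and of 5 genes of haemodynamic stress 34622 CPM against 2067 to 4639 CPM (3 of 5 above). Most of the stress sum was Myh7, at 30419.7 CPM, whose level is given above. Nppa, at 1099 CPM, made up most of the atrial sum. The 10 adipocyte markers summed to 7.63 CPM, inside the 5.35 to 11.2 CPM of the others (2 of 10 above and 1 below). Lep and Acvr1c were each at 0 in 3 sham libraries, this one included. The 10 skeletal muscle markers summed to 4.72 CPM against 2.72 to 4.37 CPM (3 of 10 above). The 5 brown adipocyte markers summed to 70.0 CPM against 21.8 to 33.6 CPM, with Cidea, also on the PPAR target list, at 69.1 CPM and the defining gene Ucp1 at 0 in all 6 sham libraries. The fibroblast (8 markers, Postn among them), endothelial (7 markers) and erythrocyte (5 markers) sums were 807, 680 and 1091 CPM there, against 1026 to 2064, 681 to 894 and 977 to 3300 CPM. The part of the cardiomyocyte, atrial, macrophage and stress levels in the members' values was not tested. In whole tissue, fewer cells of a type and less RNA per cell cannot be told apart.

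The comparison that the picking did not use is that of genotypes after infarction, fitted on the 6 MI libraries alone. It asks whether Cre at the periostin locus goes with a different level of these genes in the infarcted ventricle. With edgeR's quasi-likelihood test and Benjamini-Hochberg adjustment, 0 of the 9 members and 1 of 13585 genes (0.00736%), Postn, passed an adjusted p under 0.05. At an unadjusted p under 0.05 stood 2 members, Acot2 and Plin5, and 2867 genes (21.1%). DESeq2 called 2 members and 946 of the same 13585 genes, and edgeR without Cre-positive MI replicate 3 called 1 member and 314 genes. The 2 groups overlapped for all 9 members, while 7.35% of genes were higher in every Cre-positive MI library and 21.8% lower.

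Pdk4 had 361, 333 and 174 CPM in Cre-positive MI libraries, against 444, 83.9 and 111 CPM in Cre-negative MI libraries. The highest library was Cre-negative and the 2 lowest were as well. The log2 fold change was 0.52 ± 0.56 (SE, n = 3 per group, edgeR adjusted p = 0.65), with a 95% interval of -0.58 to 1.63.

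Acot1 had 16.2, 13.1 and 7.26 CPM in Cre-positive MI libraries, against 17.1, 5.24 and 6.13 CPM in Cre-negative MI libraries (log2 fold change 0.44 ± 0.44, edgeR adjusted p = 0.626). Acot2 had 93.6, 80.4 and 61.6 CPM in Cre-positive MI libraries, against 74.9, 45.5 and 52.6 CPM in Cre-negative MI libraries (0.52 ± 0.20, edgeR adjusted p = 0.176). In both genes Cre-negative MI replicate 1 lay above Cre-positive MI replicate 3. DESeq2 called Acot2 (adjusted p = 0.0478), and its adjusted p ran between 0.0478 and 0.759 over 12 alternatives.

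Angptl4 had 44.0, 31.1 and 29.9 CPM in Cre-positive MI libraries, against 68.7, 31.0 and 41.0 CPM in Cre-negative MI libraries (log2 fold change -0.35 ± 0.27, edgeR adjusted p = 0.496). Ucp3 had 51.2, 54.8 and 23.1 CPM in Cre-positive MI libraries, against 45.2, 12.02 and 17.5 CPM in Cre-negative MI libraries (0.86 ± 0.47, edgeR adjusted p = 0.336). Ucp3 had the largest fold change of the 9, with an interval of -0.06 to 1.78 that includes 0. Cpt1a had 125, 109 and 84.1 CPM in Cre-positive MI libraries, against 138, 82.4 and 85.5 CPM in Cre-negative MI libraries (0.13 ± 0.21, edgeR adjusted p = 0.773). Its interval of -0.27 to 0.53 holds no difference of 2-fold in either direction.

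Plin2 had 162, 123 and 159 CPM in Cre-positive MI libraries, against 301, 148 and 166 CPM in Cre-negative MI libraries (log2 fold change -0.40 ± 0.24, edgeR adjusted p = 0.385). Plin5 had 82.5, 80.5 and 59.0 CPM in Cre-positive MI libraries, against 51.9, 57.7 and 60.4 CPM in Cre-negative MI libraries (0.46 ± 0.14, edgeR adjusted p = 0.111). For Plin5 only Cre-positive MI replicate 3 reached down into the Cre-negative values. Without that replicate its adjusted p was 0.0425 (0.60 ± 0.10), DESeq2 gave 0.025, and the authors' deposited table gives a log2 fold change of 0.47 with an adjusted p of 0.0379. Over 12 alternatives its adjusted p ran between 0.025 and 0.661. The same deposited table gives 0.0726 for Acot2, and Plin5 is the only member that it puts under 0.05. The share of all genes that it puts under 0.05 was not counted.

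Fkbp5 had 96.8, 58.3 and 55.1 CPM in Cre-positive MI libraries, against 97.1, 47.8 and 50.6 CPM in Cre-negative MI libraries (log2 fold change 0.18 ± 0.29, edgeR adjusted p = 0.783). One library in each group was near 97 CPM and the other 4 lay between 47.8 and 58.3 CPM. Without Cre-positive MI replicate 1 the Fkbp5 fold change was -0.11, and without Cre-negative MI replicate 1 that of Angptl4 was 0.02. Without Cre-negative MI replicate 1 the fold changes of Pdk4, Acot1 and Ucp3 were 1.63, 1.16 and 1.61, with adjusted p of 0.105, 0.142 and 0.115. With a term for Y-linked reads the fold changes of Acot2 and Plin5 were 0.75 ± 0.25 and 0.60 ± 0.18. Such reads were in all 3 Cre-negative MI libraries but in only 1 Cre-positive MI library, replicate 1. That fit therefore sets this 1 library against the Cre-negative MI group, and it cannot separate genotype from that library.

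**Figure D3:**
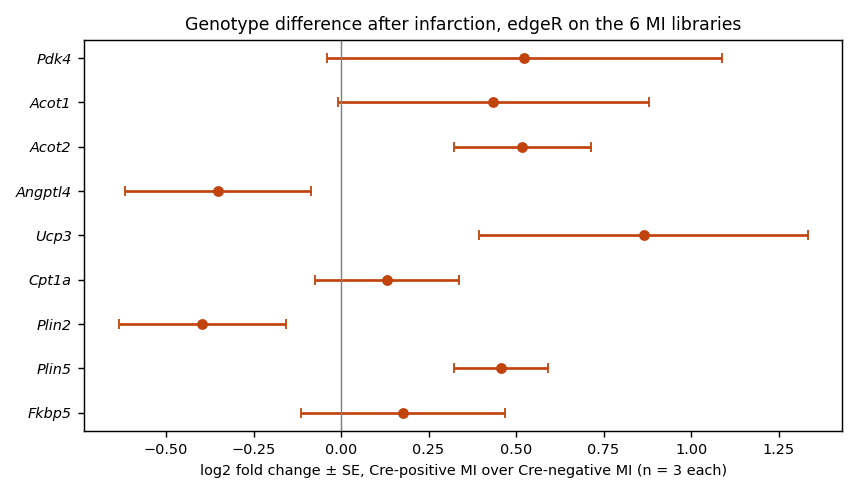
Log2 fold change of Cre-positive MI over Cre-negative MI (horizontal axis) with its standard error for the 9 genes (n = 3 libraries per group, edgeR on the 6 MI libraries). Plin5 at 0.46 and Acot2 at 0.52 have the bars farthest from 0 relative to their length, and Angptl4 and Plin2 lie below 0.

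Of 121 pathway list genes tested, 0 passed the adjusted threshold in this comparison and 56 stood at an unadjusted p under 0.05. Of other PPAR targets, 26 of 39 stood at an unadjusted p under 0.05, against 21.1% of all genes. Their median log2 fold change was 0.44, that of the 9 members also 0.44, and that of all genes 0.00. DESeq2 called 34 genes of the lists, and edgeR without Cre-positive MI replicate 3 called 18. Hadha, a subunit of the mitochondrial enzyme of fatty acid oxidation, had 1403, 1481 and 1226 CPM in Cre-positive MI libraries, against 1036, 998 and 1054 CPM in Cre-negative MI libraries (0.48 ± 0.10, edgeR adjusted p = 0.0676). Ppargc1a had 113, 123 and 129 CPM in Cre-positive MI libraries, against 97.3, 78.7 and 92.7 CPM in Cre-negative MI libraries (0.52 ± 0.10, adjusted p = 0.067). Neither gene's groups overlapped, but both were named for small p-values in this same comparison, so this is no test. Of all genes, 7.35% were higher in every Cre-positive MI library. Klf15, a fasting factor of muscle, had 65.6, 65.6 and 52.2 CPM in Cre-positive MI libraries, against 37.4, 27.7 and 40.7 CPM in Cre-negative MI libraries (0.86 ± 0.16, edgeR adjusted p = 0.0634). Klf15 was likewise named for a small p-value in this comparison, so its values are no test either.

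Of 40 other PPAR targets, 17 were higher in every Cre-positive MI library than in any Cre-negative one, against 7.35% of all genes, and 1 was lower. The median fold change was 0.12 over receptors and cofactors, 0.28 over the glucocorticoid list, 0.29 over the FOXO list and 0.23 over relatives of the members. The sum of the 12 cardiomyocyte markers was 87390 to 100689 CPM in Cre-positive MI and 63862 to 84175 CPM in Cre-negative MI libraries, without overlap. That of the fibroblast markers was 12752 to 13774 CPM in Cre-positive MI and 17769 to 20057 CPM in Cre-negative MI libraries, and that of the macrophage markers 1895 to 2176 and 2587 to 3213 CPM. The fibroblast sum includes Postn, the locus that carries Cre, at 649 to 719 CPM in Cre-positive MI and 1699.5 to 1876 CPM in Cre-negative MI libraries. The part of these levels in the fold changes was not tested.

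Within the MI groups the members varied more than most genes. The SD of log2 CPM over 3 libraries had a median of 0.30 over the members in Cre-positive MI, against 0.10 over 9648 genes with at least 10 CPM, and of 0.56 over the members in Cre-negative MI, against 0.12 over 9875 genes. In Cre-positive MI, 8 members stood in the 10% of genes with the highest SD, all but Plin2. In Cre-negative MI, 7 did so, with Acot1 under 10 CPM and Plin5 at an SD of 0.11. Ucp3 had the largest SD in Cre-positive MI, 0.68, and Pdk4 in Cre-negative MI, 1.28, where its highest library held 5.29 times its lowest. In Cre-negative sham, whose libraries took part in the picking, all 9 were in that 10%.

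The libraries that were high were the same for most members. Cre-positive MI replicate 1 was the highest of its group for 8 members, all but Ucp3, and for 38.7% of genes. Cre-negative MI replicate 1 was the highest of its group for 8 members, all but Plin5, and for 48.0% of genes. The lowest library for 8 members was replicate 3 in Cre-positive MI (33.0% of genes) and replicate 2 in Cre-negative MI (25.1% of genes). The adipocyte sum was 989 CPM in Cre-positive MI replicate 1, against 28.4 and 285 CPM in replicates 2 and 3, and 346 CPM in Cre-negative MI replicate 1, against 162 and 160 CPM. The brown adipocyte sum was 83.3 CPM in Cre-positive MI replicate 1, with Ucp1 at 36.1 CPM, against 24.2 to 32.3 CPM in the other MI libraries. Cre-positive MI replicate 1 was also the only library of its group with Y-linked reads, at 145 CPM against 0.22 and 0.64 CPM in replicates 2 and 3, whereas all 3 Cre-negative MI libraries held them, at 162 to 167 CPM. The part of the adipocyte markers and of sex in the members' spread was not tested.

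**Figure D4:**
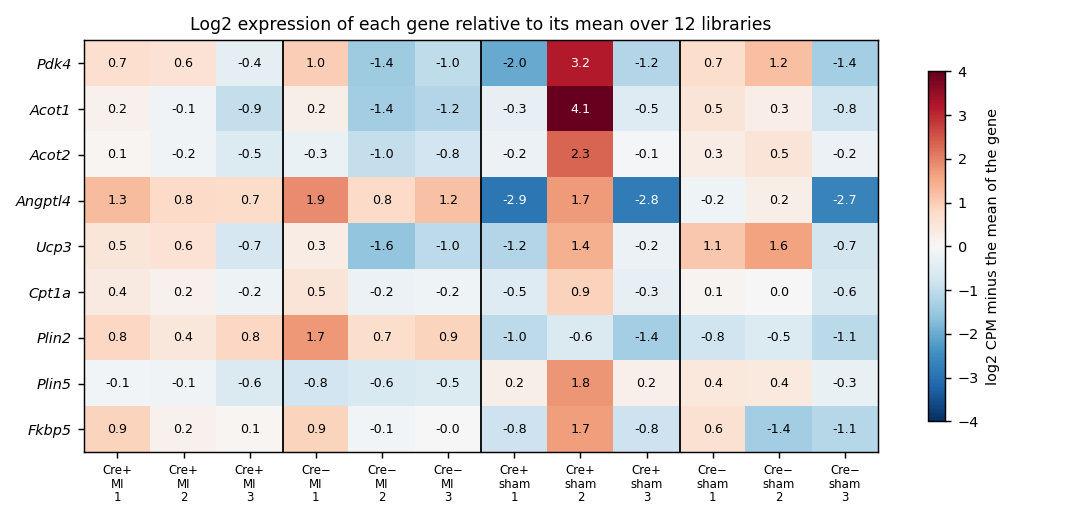
Log2 CPM (pseudocount 0.5) of each gene minus its mean over 12 libraries, printed in each cell, with genes as rows and libraries as columns in 4 groups of 3. Cre-positive sham replicate 2 is above the mean for 8 genes and below it for Plin2, and Angptl4 and Plin2 are above their means in all 6 MI libraries.

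Infarction against sham surgery rests on libraries that the picking used, so the members' fold changes are given without p-values. In Cre-negative hearts Plin2 was at 301, 148 and 166 CPM after MI, against 51.5, 62.0 and 42.4 CPM after sham, a log2 fold change of 1.73 ± 0.24 (SE, n = 3 per group). Angptl4 was at 68.7, 31.0 and 41.0 CPM after MI, against 16.0, 21.3 and 2.38 CPM after sham (1.59 ± 0.53). Every MI library lay above every sham library for these 2 genes, as for 48.7% of all genes. Overlaps and their shares were read from CPM by library total, without the TMM scaling behind the fold changes. Under that scaling 32.8% of genes were called higher and 28.6% lower (edgeR adjusted p under 0.05).

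On the other side, Plin5 (-1.10 ± 0.17) and Acot2 (-1.10 ± 0.21) were lower in every Cre-negative MI library than in any Cre-negative sham library, as were 19.6% of all genes. Ucp3 (-1.75 ± 0.57), Acot1 (-0.96 ± 0.45) and Pdk4 (-0.86 ± 0.68) had overlapping groups, and Fkbp5 (0.41 ± 0.49) and Cpt1a (-0.03 ± 0.22) stood near or above 0. The perilipins thus stood on opposite sides of 0 after infarction.

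In Cre-positive hearts the answer turned on Cre-positive sham replicate 2. Pdk4 was at 361, 333 and 174 CPM after MI, against 55.2, 2003 and 98.9 CPM after sham. Its log2 fold change was -1.54 ± 1.18 with all libraries and 1.66 ± 0.34 without that replicate. That of Angptl4 was 0.49 ± 1.08 with it and 3.83 ± 0.24 without, that of Fkbp5 -0.30 ± 0.66 and 1.03 ± 0.23, and that of Ucp3 -0.40 ± 0.63 and 0.64 ± 0.38. The sign changed for Pdk4, Ucp3, Cpt1a and Fkbp5.

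Acot1 (-3.13 ± 1.21) and Acot2 (-1.60 ± 0.66) were lower after MI with all libraries and nearer 0 without it, at -0.07 ± 0.30 and -0.29 ± 0.17. Cpt1a was at -0.27 ± 0.38 with it and 0.31 ± 0.16 without.

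Plin2 and Plin5 kept their sides of 0 with and without that replicate. Plin2 was at 162, 123 and 159 CPM after MI, against 43.4, 60.6 and 34.6 CPM after sham in Cre-positive hearts, with a log2 fold change of 1.46 ± 0.22 and, without it, 1.67 ± 0.16. Plin5 was at 82.5, 80.5 and 59.0 CPM after MI, against 104, 304 and 103 CPM after sham (-1.42 ± 0.43 and, without it, -0.74 ± 0.15). Both genes had groups that did not overlap, as did 40.9% of genes with higher and 10.9% with lower levels after MI, and in both genotypes Plin2 was higher and Plin5 lower after MI.

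**Figure D5:**
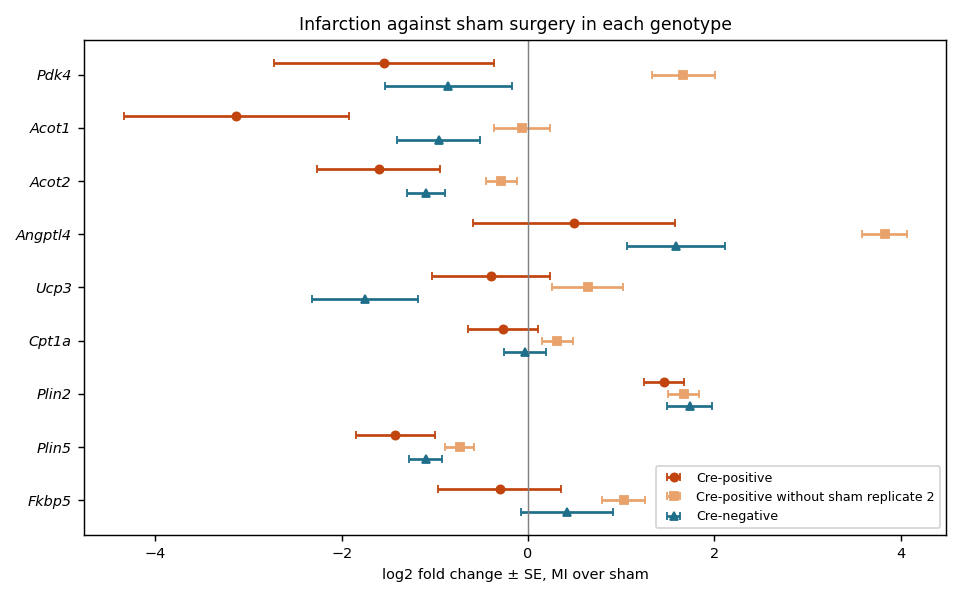
Log2 fold change of MI over sham (horizontal axis) with its standard error for the 9 genes in Cre-positive hearts (circles), in Cre-positive hearts without sham replicate 2 (squares) and in Cre-negative hearts (triangles), n = 3 libraries per group, or 2 for sham in the squares. Plin2 lies between 1.46 and 1.73 in all 3 fits, and Pdk4 moves across 0 when the library is left out.

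Most other PPAR targets fell after infarction in Cre-negative hearts. There 32 of 39 fell and 2, Cidec and Creb3l3, rose (edgeR adjusted p under 0.05 over all genes, where 28.6% fell and 32.8% rose, 61.3% in all), and the list had its median log2 fold change at -0.98. In Cre-positive hearts 16 of 39 fell and 2 rose, where 13.3% and 21.5% of all genes did (34.9% in all), with a median of -0.76. Cidec and Creb3l3 are named after their values were seen, and Cidec is also an adipocyte marker. Hadhb, the partner subunit of Hadha, had 931, 934 and 944 CPM in Cre-negative MI, against 2148, 1840 and 1827 CPM in Cre-negative sham libraries (-1.30 ± 0.11, edgeR adjusted p = 1.29e-05). Vldlr, which takes up triglyceride-rich lipoproteins, fell as well (-1.41 ± 0.10, edgeR adjusted p = 4.1e-06). Hadhb and Vldlr were named for small p-values in this comparison, so their values are no test.

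Of the receptors and cofactors, 11 of 16 fell and 0 rose in Cre-negative hearts, and 9 fell and 0 rose in Cre-positive hearts. Ppara had 39.4, 62.3 and 62.4 CPM in Cre-negative MI, against 106, 92.3 and 130 CPM in Cre-negative sham libraries (log2 fold change -1.25 ± 0.20, edgeR adjusted p = 0.000506). The retinoid partner receptor gene Rxrg, named for a small p-value in this comparison, fell in Cre-negative hearts (-1.23 ± 0.10, edgeR adjusted p = 7.46e-06). Of the FOXO and fasting genes, 13 of 18 fell and 2 rose in Cre-negative and 6 fell and 2 rose in Cre-positive hearts. Of the glucocorticoid list, 6 of 17 fell and 2 rose in Cre-negative hearts and 1 fell and 1 rose in Cre-positive hearts, and of 31 relatives of the members 14 fell and 12 rose in Cre-negative hearts and 8 fell and 5 rose in Cre-positive hearts. Pdk2, the sister kinase of Pdk4, had 406, 377 and 374 CPM in Cre-negative MI, against 903, 842 and 915 CPM in Cre-negative sham libraries.

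The sum of cardiomyocyte markers was 87390 to 100689 CPM in Cre-positive MI and 63862 to 84175 CPM in Cre-negative MI libraries, against 81219 to 151156 CPM in Cre-positive sham and 133470 to 143095 CPM in Cre-negative sham libraries. Its part in the falls was not tested. Adipocyte markers summed to 28.4 to 989 CPM in MI libraries and 5.35 to 11.2 CPM in sham libraries.

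Genotypes after sham surgery differed in no gene at an adjusted p under 0.05 (0% of 12529 tested in edgeR, 453 or 3.62% at an unadjusted p under 0.05, and 15 in DESeq2). The members' log2 fold changes of Cre-positive over Cre-negative sham hung on replicate 2: Acot1 was at 2.604 ± 1.196 with it and -0.51 ± 0.34 without, Pdk4 at 1.21 ± 1.25 and -2.04 ± 0.62, and Angptl4 at 0.75 ± 1.24 and -2.64 ± 0.76. Plin5 was at 0.78 ± 0.44 with it and 0.04 ± 0.20 without. Besides Acot1, Pdk4 and Angptl4, the sign changed for Acot2, Cpt1a and Fkbp5. A genotype difference in the response to injury was called for 0 of 13678 genes in edgeR (0%) and for 34 by DESeq2, and 1116 genes (8.16%) had an unadjusted p under 0.05. In the pathway lists edgeR and DESeq2 called 0 of 121 genes tested, of which 17 had an unadjusted p under 0.05 in edgeR.

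Compared per length, Pdk4 averaged 83.0 ± 29.0 FPKM in Cre-positive MI libraries and Plin2 78.5 ± 11.6 FPKM (SD, n = 3), a gap smaller than the spread of Pdk4. In Cre-negative MI libraries Plin2 had 109 ± 44.4 FPKM and Pdk4 61.2 ± 57.5 FPKM, again a gap smaller than the spread of Pdk4. Plin5 (37.6 ± 6.65 FPKM) and Acot2 (35.4 ± 7.23 FPKM) did not differ beyond their spread in Cre-positive MI libraries. Cpt1a, at 24.2 ± 4.73 FPKM there, stood above Angptl4, at 18.3 ± 4.08 FPKM, by more than the SD of either, while Angptl4, Fkbp5 and Ucp3, at 17.5 to 18.3 FPKM, did not differ beyond their spread. Acot1 was lowest in both groups, at 7.86 ± 2.94 FPKM in Cre-positive MI and 6.11 ± 4.24 FPKM in Cre-negative MI libraries.

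The mean profile of the members over the 12 libraries, as log2 CPM centred for each gene, was 1.83 in Cre-positive sham replicate 2 and between -0.998 and 0.62 elsewhere. Cpt1a was the member nearest to it, with a mean absolute difference of 0.28 per library, and Angptl4 the farthest at 1.04. Of 12227 other genes the 5 nearest were Hsd17b11 (0.24), Map3k6 (0.26), Mt1 (0.30), A930033H14Rik (0.32) and Trp53inp1 (0.32). Hsd17b11, an enzyme found on lipid droplets, had 125 CPM in Cre-positive sham replicate 2, against 23.2 to 43.6 CPM in the remaining sham libraries, and 37.9 to 55.0 CPM in MI libraries.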

How the data were processed

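Left ventricle RNA was sequenced in 12 libraries, 3 per group. Per the submitters' processing notes, Bowtie2 2.2.5, RSEM 1.2.12 and mm10 were used. Per the file headers, the authors deposited an expected count and an FPKM value (per length and library size) for each gene and library, and a comparison table with log2 fold changes and adjusted p-values, quoted for the genotypes after MI. Expected counts, of which 74.0% were whole, were rounded, and CPM is the count scaled to a library total of 1e+06. Intervals cover the spread between libraries, and 3 counts correspond to 0.198 to 0.292 CPM.

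Each comparison was fitted on its own 6 libraries in R 4.3.3 with edgeR 4.0.16 (filterByExpr with a minimum count of 10, TMM, quasi-likelihood test, two-sided), so that the library that picked the members enters only its own comparisons. The difference between injury responses used 12 libraries. Standard errors are the fold change over the root of the F statistic, and 95% intervals of fold changes use the normal quantile of that error. P-values were adjusted over all genes tested. The steps were tested on simulated data. DESeq2 1.42.0, RLE scaling, no filter, a fit on 12 libraries, a term for Y-linked reads, a replicate block and leaving out each library were alternatives. Log2 ratios of single libraries used a pseudocount of 0.5 CPM.

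The members, the gene lists (5 of pathways, 10 of markers) and the tests were chosen with earlier results of these data known. Named are the 9 members, Yap1, Postn, Myh6 and Myh7, from each pathway list genes among the 4 smallest p-values after MI by genotype, the 4 smallest by injury in Cre-negative hearts or the 4 largest ratios in Cre-positive sham replicate 2 (mean of at least 2 CPM), and the 5 genes nearest to the members' profile. One gene that meets this rule is not reported here. Promoters are from RefSeq. No pair of libraries in a group held identical counts.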

Additional observations from a re-analysis of the deposited data

How the results depend on the processing

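In the comparison of genotypes after MI, DESeq2 called 946 genes, 34 of the pathway lists and 2 members, against 1, 0 and 0. All 12 libraries in 1 fit gave 0 genes. With a term for Y-linked reads the genotype difference rests on Cre-positive MI replicate 1 alone, so its count of genes is no test. Leaving out 1 library gave 0 to 314 genes, 0 to 18 of the lists and 0 to 1 members, the highest of each without Cre-positive MI replicate 3 (10 genes without replicate 1 and 0 without replicate 2 of that group, and 4 without Cre-negative MI replicate 1). With 1 library left out the fold change ranged between -0.11 (without Cre-positive MI replicate 1) and 0.57 for Fkbp5, and between -0.57 and 0.017 (without Cre-negative MI replicate 1) for Angptl4, both crossing 0. Counts of members in comparisons with sham libraries rest on values that picked them and are no test. In Cre-negative hearts, injury gave 7336 to 7887 genes, 89 to 95 of the lists and 4 to 6 members with 1 library left out, and 2 members with 12 libraries in 1 fit, against 8194, 93 and 5. In Cre-positive hearts it gave 2922 to 5982 genes, 27 to 71 of the lists and 1 to 5 members, the highest without Cre-positive sham replicate 2, the lowest 2 counts of genes without Cre-positive MI replicates 3 and 1 (2922 and 2997), 1 member without any one Cre-positive MI library, 4 members without Cre-positive sham replicate 1, and 4 members with 12 libraries in 1 fit. The term for Y-linked reads gave 2984 genes, 29 of the lists and 1 member there, against 4630, 49 and 2 with all 6 libraries and no such term. After sham, DESeq2 called 15 genes, 12 libraries in 1 fit 7, and leaving out 1 library 0 to 3, with 0 members and 0 of the lists. For the difference between injury responses DESeq2 called 34 genes and no filter 2, and leaving out 1 library 0 to 1, with 0 of the lists. The causes were not tested. Under TMM or RLE scaling 8 members in place of 7 lay outside the range of the other sham libraries. The added member was Plin2, which then lay above that range. The lowest level of a member was 1.98 CPM, of Angptl4 in Cre-positive sham replicate 1, where 3 counts correspond to 0.22 CPM.

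The replicate numbers are given by the labels alone, which do not say whether same-numbered libraries share a batch or are paired. After MI, deviations of same-numbered libraries correlated at 0.29, -0.01 and 0.25, which does not settle it. With a replicate block 231 genes, 12 of the pathway lists and 0 members were called between genotypes after MI, and the block moved no other count of calls by over 1.5 times.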
